A study of Mus musculus with 12 samples.

Results

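The genes described here are 76 nuclear-encoded subunits of the mitochondrial respiratory chain and ATP synthase, whose transcripts were counted in tumourspheres of 3 spindloid mammary tumour cell lines of the mouse. They were chosen by symbol from a table of 55573 genes. The symbol had to be that of a subunit of NADH dehydrogenase (Nduf), succinate dehydrogenase (Sdha to Sdhd), the cytochrome bc1 complex (Uqcr and Cyc1), cytochrome c oxidase (Cox) or ATP synthase (Atp5). Of the 96 symbols that matched, 8 carried the suffix -ps and were left out, and 12 more were left out because they held fewer than 120 counts over the 12 libraries. The 76 that remained comprised 36 genes of complex I, 4 of complex II, 9 of complex III, 10 of complex IV and 17 of complex V. The member with the fewest counts was Ndufs5 with 1226, and the gene just below the limit was Cox7a1 with 118. All 76 passed the filter on low counts and were tested. The symbol rule does not match Cox4i1 or Ndufab1, which are known chain subunits, and it leaves out Ndufb1-ps, which held 11847 counts. Ndufa4 is counted with complex I by its symbol, although its protein is known as a subunit of complex IV.

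The lines A1005, A1129 and A1471 each came from a separate mammary tumour of the genotype MMTV-Metmt;Trp53fl/+;Cre. This genotype holds a transgene of an activated Met receptor under MMTV, a promoter active in mammary epithelium. The floxed allele of the tumour suppressor gene Trp53 is removed by Cre recombinase, whose promoter the labels do not name. The paper describes amplification of the endogenous Met locus in this tumour model. Tumourspheres, which are clusters of tumour cells grown in suspension, received for 24 h either DMSO as vehicle, Crizotinib (an inhibitor of the Met kinase), PD173074 (an inhibitor of FGF receptor kinases) or the combination. Every library, DMSO included, was of this genotype, and each treatment had 1 library of each line (n = 3 lines). Without pairing, p-values set a difference against the spread between the lines, estimated over all 12 libraries as if they were independent. With the cell line as a block, they set it against the spread of the treatment changes among the 3 lines. The comparisons ask how the subunit genes responded to loss of signalling through either receptor or through both.

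Total counts were 13031492 to 17750476 per library, and the 76 genes together took 0.87% to 1.1% of them. Counts mapped to the mitochondrial genome took 1.21% to 1.29% with DMSO and 1.93% to 2.52% with the combination. With the single inhibitors they took 1.44% to 1.48% (Crizotinib) and 1.53% to 1.66% (PD173074). Levels are given as CPM, which are counts scaled to the library size after its correction for composition by the TMM factors of edgeR. Of the markers of mesenchymal cells, Vim had a mean of 2889.8 CPM in DMSO and Snai2 of 0.133 CPM. Of those of epithelial cells, Epcam, Cdh1, Krt14, Krt5 and Cldn7 lay at a mean of 0.503 CPM or lower, Krt8 at 7.06 CPM and Krt18 at 20.0 CPM. In an edgeR test with the cell line as a block Krt18 fell, to 10.2 CPM with the combination (edgeR adjusted p = 0.000225) and to 9.75 CPM with PD173074 (adjusted p = 0.00734), and it passed neither comparison without the block. The summed level of 7 epithelial markers was 16.1 to 39.6 CPM with DMSO and 7.32 to 42.2 CPM with the combination, and that of 5 leukocyte markers was 4.34 to 31.3 and 8.22 to 42.0 CPM. Endothelial and erythroid markers stayed at or below 0.752 CPM in sum, and muscle markers lay between 0.167 and 23.6 CPM. The sum of 7 mesenchymal markers was 3500 to 5230 CPM with DMSO and 3600 to 9750 CPM with the combination, and of these Twist1 fell from a mean of 113 to 53.2 CPM (adjusted p = 0.00156). Sparc rose from 391 to 1398 CPM and Zeb2 from 41.2 to 59.0 CPM with the block only (adjusted p = 0.000552 and 0.0133), and Fn1, at 748 and 2333 CPM, passed neither test. The part of these cells in the results below was not tested, and in such bulk libraries fewer cells of a type and less RNA per cell cannot be told apart.

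Complexes I and II take electrons from NADH and from succinate and pass them to ubiquinone, complex III passes them to cytochrome c, and complex IV passes them to oxygen. Complexes I, III and IV pump protons across the inner mitochondrial membrane, and complex V, the ATP synthase, uses the proton gradient to make ATP. All complexes but II are built from subunits of both the nuclear and the mitochondrial genome, and many nuclear subunit genes are known targets of the transcription factors NRF1, GABP (an ETS factor) and YY1.

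Promoters were examined for the letters bound by these factors, because genes of this family are known for them. RefSeq windows of 300 bases on GRCm38.p6, from 250 bases before the RefSeq start to 50 after it, were matched for 64 members, and all windows of the table comprised 27025 genes. On either strand, the NRF1 letters GCGCATGC were found for 10 of 64 members (15.6%), compared with 3.05% of all genes and 5.99% of the 10035 tested genes with a window. For the ETS letters CCGGAAG the count was 17 members (26.6%), compared with 9.93% and 20.4%, and for the YY1 letters AAGATGGC it was 10 members (15.6%), compared with 3.19% and 5.31%. A window could hold several motifs, which was so for 6 members, and 33 members held none of the 3 in this window. Bases before the RefSeq start, with at most 30 within the gene as GENCODE M21 annotates it, are shown for Sdhb and Atp5b, which fell with the combination, and for Ndufa6, which differed most between lines among the members of complex I, with the NRF1 letters in capitals:
Sdhb: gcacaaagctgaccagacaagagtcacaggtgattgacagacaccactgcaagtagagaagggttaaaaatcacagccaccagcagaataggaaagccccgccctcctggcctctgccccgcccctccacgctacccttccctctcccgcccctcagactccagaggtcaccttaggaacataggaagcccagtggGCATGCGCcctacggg
Atp5b: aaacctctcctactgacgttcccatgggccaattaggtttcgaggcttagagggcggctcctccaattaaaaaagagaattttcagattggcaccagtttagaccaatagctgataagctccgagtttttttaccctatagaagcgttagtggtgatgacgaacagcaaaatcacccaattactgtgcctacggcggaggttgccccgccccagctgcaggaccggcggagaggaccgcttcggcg
Ndufa6: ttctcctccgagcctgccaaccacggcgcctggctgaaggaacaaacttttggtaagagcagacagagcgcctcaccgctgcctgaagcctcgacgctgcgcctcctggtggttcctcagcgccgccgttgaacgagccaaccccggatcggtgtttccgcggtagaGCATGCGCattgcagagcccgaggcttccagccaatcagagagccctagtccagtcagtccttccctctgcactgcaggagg
Sdhb lies on the plus strand of chromosome 4 (chr4:140961021-140961232), Atp5b on the plus strand of chromosome 10 (chr10:128083057-128083302) and Ndufa6 on the minus strand of chromosome 15 (chr15:82354293-82354541). The match began 54 bases before the RefSeq start in Sdhb and 83 bases before it in Ndufa6, in each case on the strand opposite to the gene, and the ETS letters lay 7 bases into Sdhb, outside the bases shown. In GENCODE M21 the genes start earlier, at 140961203 for Sdhb, 128083273 for Atp5b and 82354322 for Ndufa6, so that the match of Sdhb lies within the gene by that annotation and that of Ndufa6 before it. Atp5b held none of the 3 motifs. With the combination the median log2 fold change was -0.04 for the 10 members with NRF1 letters and -0.07 for the other members with a window. Matches are a description of these letters and not of binding.

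Levels among the subunits differed widely when CPM were divided by the exon length in kb. This length joins all annotated exons of a gene and can exceed that of its transcript, so the ranks below depend on it. In DMSO the median of the 3 lines was highest for Atp5a1 (329 CPM per kb) and Atp5b (283 CPM per kb), which encode the alpha and beta subunits of the catalytic head of ATP synthase. They were followed by Cox8a (236 CPM per kb) and Uqcr10 (203 CPM per kb), small subunits of complexes IV and III. The lowest were Ndufb4 (4.61 CPM per kb) and Ndufb2 (4.86 CPM per kb), accessory subunits of complex I. Ndufb2 was at a mean of 28.1 CPM, with a joined exon length of 5628 bases. Among genes of 1 subunit, the c ring of ATP synthase drew on 3 genes, with Atp5g3 at 116, Atp5g2 at 35.2 and Atp5g1 at 20.0 CPM per kb. The order of Atp5g2 and Atp5g1 came from their exon lengths of 1675 and 4912 bases. Before the division their means in DMSO were 65.4 and 92.8 CPM. The isoforms known from muscle or other specialised tissues were near the limit of detection: Cox6a2 held 7 counts in all libraries, Cox7a1 118 and Ndufa4l2 4, and Cox8b, Cox7b2, Cox8c and Cox6b2 held 0. A count of 0 in a library allows a level of up to 0.169 to 0.230 CPM of the library total, taken as 3 counts and covering counting error only.

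With the combination some subunit genes differed from DMSO, in opposite directions, in a number that depended on the pairing by line. The fold changes of most others were small. Against DMSO, 3 of 76 members were past the threshold (edgeR quasi-likelihood test without pairing, Benjamini-Hochberg adjusted p of 0.05 over 13836 genes), whereas 14.4% of all tested genes were (6.1% higher and 8.28% lower). The libraries are paired by cell line, and with the line as a block 27 of 76 members passed (35.5%), 9 higher and 18 lower, compared with 54.8% of all tested genes (28.6% higher and 26.2% lower). In both tests the share among the subunits was below that among all genes. Sdhb and Atp5b were among the 3 members of the unpaired test, both lower. None of the 3 passed it without A1129 or without A1471, and the blocked count was then 18 or 10. The median log2 fold change over the 76 was -0.07, with 50 of 76 negative, compared with 0.02 over all tested genes. Without A1129 the median was 0.03, and the direction of the whole family thus rests on this line. The median size of the fold changes was 0.19 on the log2 scale, compared with 0.52 over all tested genes.

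**Figure D1:**
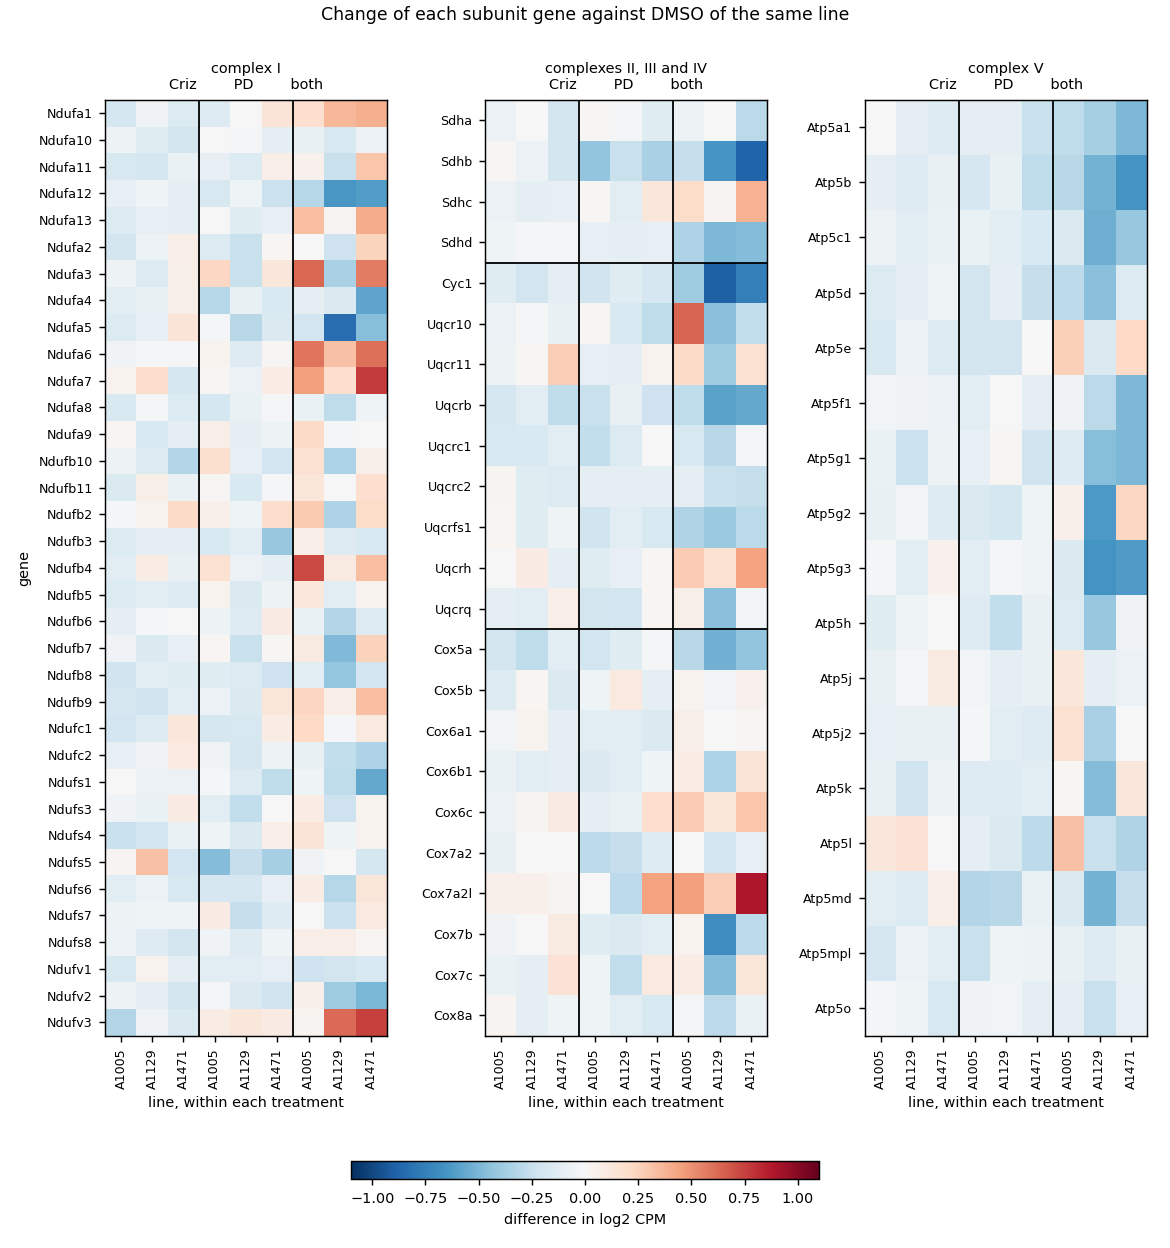
Difference in log2 CPM between each treated library and the DMSO library of the same line for the subunit genes, grouped by complex, with columns for the 3 lines within Crizotinib (Criz), PD173074 (PD) and the combination (both) and colours from blue (lower) to red (higher). Ndufa6 and Cox7a2l are red and Sdhb, Cyc1 and Atp5b are blue in all 3 lines with the combination.

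Complex I transfers electrons from NADH through a chain of iron-sulphur clusters. With the line as a block 6 of its 36 genes were higher and 4 lower. Ndufa6, an accessory subunit, was at 116, 53.9 and 86.8 CPM in A1005, A1129 and A1471 (the order used throughout) with DMSO and at 175, 67.5 and 132 CPM with the combination, higher in each line although the groups overlapped. Its log2 fold change was 0.51 ± 0.09 (SE) with the block, with an edgeR adjusted p of 0.000795, compared with an adjusted p of 0.481 without the block. Ndufa1, Ndufa7, Ndufa13 and Ndufv3 rose by 0.26 to 0.48 on the log2 scale in the blocked test. Ndufs1, the largest core subunit, was at 149, 165 and 175 CPM with DMSO and at 144, 136 and 118 CPM with the combination, and with the block it fell by 0.30 on the log2 scale (adjusted p = 0.0312). Ndufa5 had the smallest unpaired p among the lower genes of complex I, going from 44.4, 43.6 and 44.8 to 38.4, 24.4 and 32.4 CPM, and with Ndufa12 and Ndufb8 it fell by 0.25 to 0.52 with the block. Some of these blocked calls changed with the scaling: Ndufb8 did not pass with DESeq2, with its size factors or with total counts alone, Ndufs1 did not with total counts alone, and Ndufb4 and Ndufb9 passed in each of these and with limma-voom. The core flavoprotein subunit Ndufv1 was at 86.1, 165 and 123 CPM and then at 73.4, 143 and 109.6 CPM, and passed neither test (log2 fold change -0.20 ± 0.08 with the block, adjusted p = 0.0537). Ndufa4, whose paralog Ndufa4l2 was close to 0, went from 240.2, 174 and 189.7 to 224, 155 and 127 CPM and also passed neither (adjusted p = 0.0920 with the block). The median over the 36 genes of complex I was -0.01, and it was 0.04 with total counts alone and 0.02 with the size factors of DESeq2, so that its sign changed with the scaling.

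**Figure D2:**
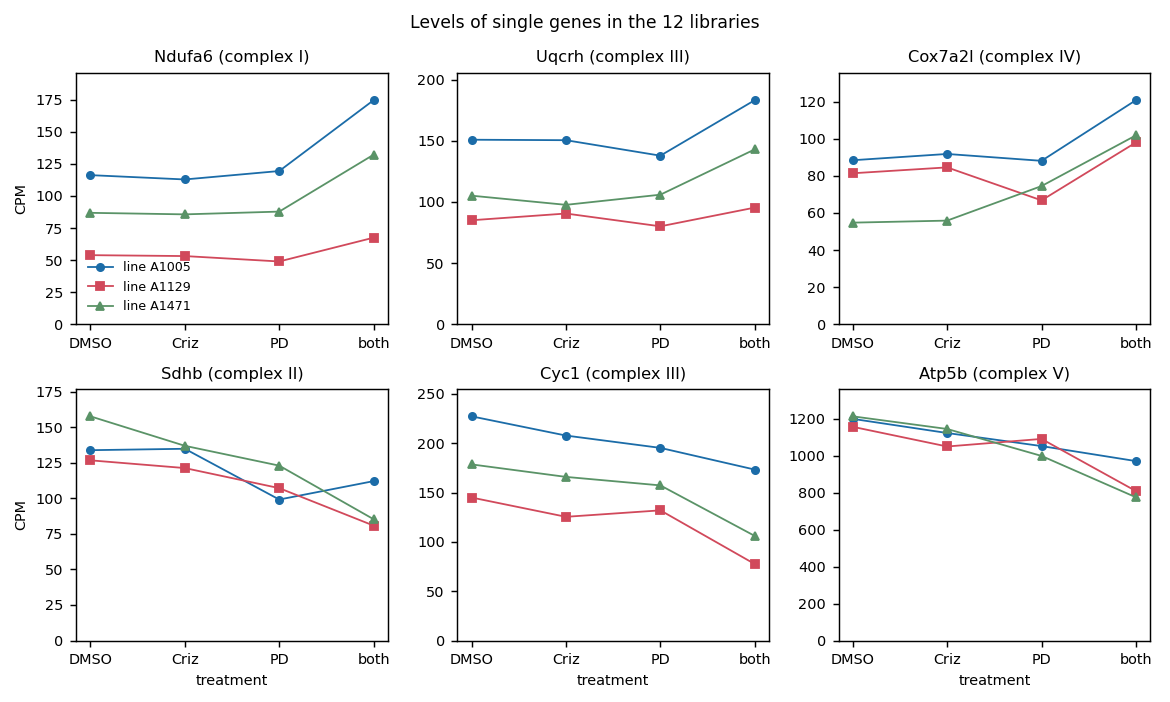
CPM of Ndufa6, Uqcrh, Cox7a2l, Sdhb, Cyc1 and Atp5b in the 12 libraries, joined by cell line across DMSO, Crizotinib (Criz), PD173074 (PD) and the combination (both), on axes that start at 0. Ndufa6, Uqcrh and Cox7a2l are higher and Sdhb, Cyc1 and Atp5b are lower with the combination than with DMSO in each line.

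Complex II is succinate dehydrogenase, which also serves the citric acid cycle and has no mitochondrially encoded subunit. Sdhb, its iron-sulphur subunit, was at 134, 127 and 158 CPM with DMSO and at 112, 80.8 and 85.3 CPM with the combination. The 3 combination libraries lay below the 3 DMSO libraries. It fell by 0.59 ± 0.16 on the log2 scale (SE, edgeR adjusted p = 0.0369, and 0.00311 with the block). Sdhd, a membrane anchor, was at 219.8, 159.8 and 204 CPM and then at 174, 113 and 147 CPM, and it fell by 0.44 ± 0.08 with the block only (adjusted p = 0.000935). The other anchor, Sdhc, was at 153, 107 and 120 CPM with DMSO and at 176, 109 and 156 CPM with the combination, and the catalytic flavoprotein Sdha was at 251, 254 and 360.2 and then at 241, 255 and 294 CPM. In edgeR with TMM factors neither passed (adjusted p = 0.0753 and 0.266 with the block), but Sdhc was called higher with the block by DESeq2 and, in edgeR, with the size factors of DESeq2 or total counts alone. The summed level of the 4 genes in the combination was 0.93, 0.86 and 0.81 times that in DMSO in A1005, A1129 and A1471.

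Complex III had no member past the unpaired threshold and 5 with the block. Cyc1, cytochrome c1, had the lowest fold change of all 76 members. It was at 227, 145 and 179 CPM with DMSO and at 173, 77.5 and 106 CPM with the combination, lower in each line with overlapping groups, and it fell by 0.67 ± 0.11 on the log2 scale with the block (adjusted p = 0.000703, compared with 0.221 without it). Uqcrfs1, the Rieske iron-sulphur protein, was at 148, 157 and 204 CPM and then at 118, 118 and 166 CPM, and Uqcrb and Uqcrc2 also fell with the block, Uqcrc2 not with the size factors of DESeq2 or total counts alone. Uqcrh, the hinge protein that holds cytochrome c1, was the exception. It was at 151, 85.04 and 105 CPM with DMSO and at 183, 95.4 and 143 CPM with the combination, and it rose by 0.30 ± 0.10 with the block (adjusted p = 0.0219). The core subunit Uqcrc1 was at 205, 225 and 209.6 CPM and then at 182, 182 and 207 CPM, and passed neither test (log2 fold change -0.17).

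Complex IV showed the smallest median among complexes II to V, -0.05 on the log2 scale, which became 0.05 without A1129. With the block, Cox5a fell, and Cox6c and Cox7a2l rose. Cox5a, a subunit of the matrix side, was at 168, 194 and 211 CPM with DMSO and at 136, 135 and 156 CPM with the combination, with no overlap, and its log2 fold change was -0.42 ± 0.09 (adjusted p = 0.00258 with the block, and 0.133 without). Cox7a2l, which is known for its role in assembling complexes III and IV into supercomplexes, was at 88.4, 81.4 and 54.8 CPM and then at 121, 98.0 and 102 CPM. All 3 combination libraries lay above DMSO, and its log2 fold change was 0.53 ± 0.15 (adjusted p = 0.0108 with the block, and 0.173 without). Its paralog Cox7a2 was at 164, 123 and 99.4 CPM and then at 163, 106 and 93.3 CPM, and passed neither test. The housekeeping forms Cox6a1, Cox6b1 and Cox8a also passed neither test, with log2 fold changes of 0.02, -0.03 and -0.14. Cox6a1 went from 123, 137 and 169 to 128, 136 and 171 CPM, Cox6b1 from 145, 136 and 119.8 to 153, 107 and 132 CPM, and Cox8a from 121, 193 and 146 to 120.2, 159 and 138 CPM.

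Complex V had the largest share of genes on 1 side, with 16 of 17 genes negative and a median log2 fold change of -0.20. It was -0.16 with total counts alone and -0.09 without A1129, when 12 of 17 were negative. Atp5b, the catalytic beta subunit, was at 1200.0, 1157 and 1214 CPM with DMSO and at 971, 809 and 775 CPM with the combination. The groups did not overlap, and it fell by 0.48 ± 0.13 on the log2 scale (SE, edgeR adjusted p = 0.0330, and 0.00262 with the block). Atp5a1, the alpha subunit, was at 906, 1030.4 and 1623 CPM and then at 746, 798 and 1149 CPM, lower in each line, and passed with the block only (adjusted p = 0.00432). With the block Atp5c1, Atp5d, Atp5g1, Atp5g3 and Atp5md fell as well, so that 7 of 17 genes were lower and none was higher. Of the 3 genes of the c ring, Atp5g3 went from 317, 253 and 214 to 285, 159.9 and 139 CPM, and Atp5g1 from 103, 76.9 and 98.4 to 93.7, 55.6 and 69.7 CPM. Atp5g2 had no common direction, going from 96.5, 40.6 and 59.0 to 100.4, 26.2 and 69.0 CPM. Atp5e, the epsilon subunit and the gene of complex V with a positive value, went from 91.8, 84.3 and 56.0 to 110.5, 75.6 and 65.3 CPM and passed neither test.

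**Figure D3:**
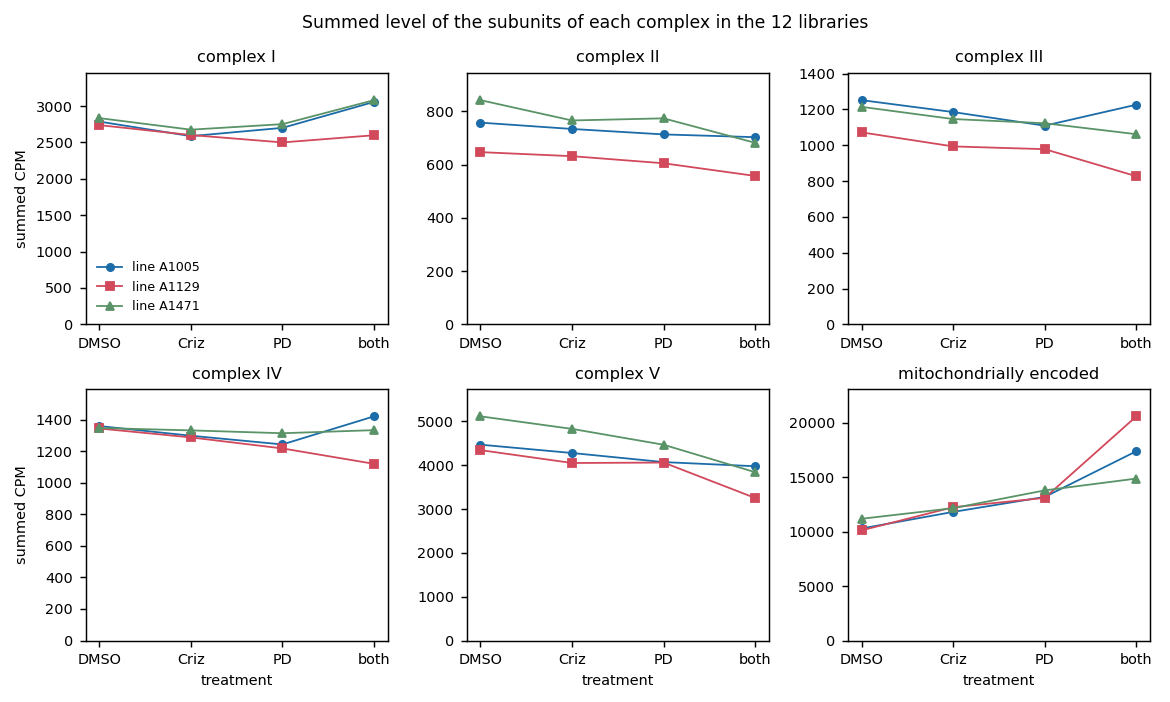
Summed CPM of the subunit genes of each complex, and of 13 mitochondrially encoded subunits, in the 12 libraries, joined by cell line across DMSO, Crizotinib (Criz), PD173074 (PD) and the combination (both). Complex V, whose largest terms are Atp5a1 and Atp5b, goes from 4343 to 5114 CPM with DMSO to 3251 to 3975 CPM with the combination. The mitochondrially encoded sum goes from 10100 to 11200 CPM to 14900 to 20600 CPM.

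As sums over a complex, complex V went from 4467, 4343 and 5114 CPM with DMSO in A1005, A1129 and A1471 to 3975, 3251 and 3839 CPM with the combination. This was 0.89, 0.75 and 0.75 times the DMSO level of the same line, and the groups did not overlap. A sum is weighted by its most abundant genes, here Atp5a1 and Atp5b. The median change over the genes of complex V was -0.11, -0.41 and -0.15 on the log2 scale in the 3 lines. For complex III the ratios of the sums were 0.98, 0.77 and 0.87, for complex IV they were 1.05, 0.83 and 0.99, and for complex I they were 1.1, 0.95 and 1.09. The complex I ratios do not describe its genes evenly. The median change over its genes was 0.08, -0.19 and 0.05 on the log2 scale in A1005, A1129 and A1471. A1129 had the lowest ratio in complexes I, III and IV. Its own median over the 76 genes was -0.28 on the log2 scale, compared with 0.04 in A1005 and -0.03 in A1471. Over the members, 32 were lower in all 3 lines and 13 were higher in all 3, which is 59.2% in 1 direction compared with 65.8% of all tested genes. Only 2 members had all combination libraries above DMSO and 5 had all below, which is 9.2% together, whereas 13.8% of all tested genes lay above and 16.1% below.

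No subunit gene passed a test with Crizotinib alone. The count was 0 of 76 in the unpaired test and with the block, as for all tested genes (0.0% in each), and at an unadjusted p of 0.05 the count was 0 unpaired and 1 with the block. DESeq2 and limma-voom also called 0 members. All the same, 67 of 76 fold changes were negative, with a median of -0.08 on the log2 scale compared with 0.00 over all tested genes. In the lines taken singly 67, 63 and 56 of the 76 were lower in A1005, A1129 and A1471, where 47.2% to 50.6% of all tested genes were. In all 3 lines 43 members were lower and 2 were higher, which is 59.2% in 1 direction compared with 35.6% of all tested genes. Cox5a was at 146, 160.1 and 193 CPM (log2 fold change -0.20) and Uqcrc1 at 182, 201 and 193 CPM against 205, 225 and 209.6 CPM with DMSO (-0.15). Uqcrb differed by -0.19, -0.12 and -0.28 on the log2 scale in A1005, A1129 and A1471, which with the block was -0.20 ± 0.10 (SE, edgeR adjusted p = 1.0).

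With PD173074 alone 0 of 76 passed in either test (background 0.0% unpaired and 2.14% with the block). At an unadjusted p of 0.05 the count was 0 unpaired and 5 with the block, DESeq2 and limma-voom called 0, and 67 of 76 fold changes were negative with a median of -0.10. All 17 genes of complex V and all 9 of complex III were negative, with medians of -0.13 and -0.14. The lowest values were those of Ndufs5 (-0.38 ± 0.25, SE) and Sdhb (-0.35 ± 0.16). Sdhb was at 99.1, 107 and 123 CPM, below the 3 DMSO libraries, with an edgeR adjusted p of 1.0 and of 0.221 with the block. The comparisons of both inhibitors and of the combination share the same DMSO libraries.

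Against PD173074, 1 member differed in the unpaired test of edgeR with the combination (background 4.77%). With the block 16 members passed, 9 higher and 7 lower (background 39.8%). Cox5a, Cyc1, Sdhd, Atp5b and Atp5g3 were among the lower and Ndufa6, Uqcrh and Cox7a2l among the higher. Against Crizotinib, 1 member passed unpaired as well (background 13.2%). With the block 22 passed, 11 higher and 11 lower (background 53.4%). Complex I gave 8 of the 11 higher members, and complexes II, III and V gave 9 of the 11 lower ones, with 0 from complex IV. Adding PD173074 to Crizotinib took Sdhc from 147, 99.4 and 113 CPM to 176, 109 and 156 CPM, a change of 0.29 ± 0.09 that passed with the block (adjusted p = 0.0193).

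Whether the combination differed from the added effects of Crizotinib and PD173074 was tested as an interaction. No member passed unpaired (background 0.918%), with 1 at an unadjusted p of 0.05, and DESeq2 called 1 member. With the block 4 members passed, all higher than the sum and all of complex I (background 16.2%). Among them were Ndufa6, Ndufb9 and Ndufa1, with departures of 0.56, 0.42 and 0.44 on the log2 scale. Ndufb9 was at 134, 93.8 and 86.2 CPM with DMSO, at 118, 80.4 and 79.0 with Crizotinib, at 128, 84.2 and 94.5 with PD173074 and at 158, 98.5 and 109 with the combination. Ndufa1 was at 35.0, 45.9 and 36.9 CPM with DMSO, at 30.5, 44.8 and 33.4 with Crizotinib, at 31.7, 45.9 and 40.9 with PD173074 and at 39.7, 59.2 and 48.4 with the combination. Both were at their highest in the combination in each line. In the blocked test the count was 0 without A1129 and without A1471, and 2 without A1005.

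Related genes were described by lists of their known functions. Of the mitochondrially encoded subunits, which join the nuclear products in complexes I, III, IV and V, 12 of 13 were tested, and 4 passed with the combination, all higher (33.3% compared with 14.4% of all tested genes), and 6 with the block (50.0% compared with 54.8%). Their median change was 0.58 on the log2 scale. It was 0.28 with Crizotinib alone (11 of 12 positive) and 0.27 with PD173074 alone (8 of 12 positive), where 0 passed either test. mt-Nd5 rose from a mean of 858 to 1860.4 CPM, mt-Nd4 from 622 to 1209.9 CPM and mt-Cytb from 2003 to 3594 CPM. Thus mt-Nd4 and mt-Nd5 rose in complex I while the nuclear genes of that complex had a median near 0. Counts of mt-Nd3, mt-Co2, mt-Co3, mt-Atp6 and mt-Atp8 were at or below a mean of 5.48 CPM. The 4 negative values with PD173074 were those of mt-Nd3, mt-Co2, mt-Co3 and mt-Atp8. The medians and sign counts above therefore include values near the floor, and those of the 2 inhibitors cannot be ranked by them. Of 51 assembly factors tested, 4 passed with the combination and 24 with the block (8 higher and 16 lower), with a median of -0.03. These shares, 7.84% and 47.1%, were below the 14.4% and 54.8% of all tested genes. Sdhaf4, which assembles the flavoprotein of complex II, rose from 12.2 to 23.9 CPM, and Pet100, a complex IV factor, from 9.61 to 19.0 CPM, while Atpaf2, which assembles the head of ATP synthase, fell from 39.6 to 24.0 CPM and Cmc2 from 24.9 to 13.7 CPM.

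Among 14 transcriptional regulators of the chain, Tfam, the packaging and transcription factor of mitochondrial DNA, fell from a mean of 55.4 to 30.9 CPM, with an adjusted p of 0.0199 in edgeR. Blocked by line, 8 regulators fell and none rose, among them Nrf1, Gabpa, Yy1, Pprc1 and Myc, and the median of the list was -0.33. The shares called, 7.14% unpaired and 57.1% with the block, compare with 14.4% and 54.8% of all tested genes, of which 26.2% were lower with the block. Of 17 genes of the citric acid cycle and pyruvate dehydrogenase, 4 fell unpaired (Cs, Idh3a, Dlst and Dlat), and with the block 10 fell and 1 rose (23.5% and 64.7%, compared with the same 14.4% and 54.8%). Idh3a went from 159.8 to 81.0 CPM. Of the chain genes that the symbol rule does not match, Cycs, cytochrome c, fell from 105 to 46.6 CPM (log2 fold change -1.17, adjusted p = 0.00300), a larger change than in any of the 76 members. Ndufab1 fell from 61.5 to 38.1 CPM and Cox4i1 rose from 326 to 383 CPM, both with the block only. No gene of these lists passed with Crizotinib or PD173074 alone in the unpaired test.

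Differences between the lines were larger than those between treatments for most subunits. In DMSO the range of log2 CPM over the 3 lines had a median of 0.44 over the members, and the range over the 4 treatments within a line had a median of 0.30. For 56 of 76 members the range over lines was the larger. These ranges were not taken over all tested genes, so whether the count is particular to the subunits was not tested. With 4 libraries per line and the treatment as a covariate, 38 members differed between A1129 and A1005 (background 57.8%), 49 between A1471 and A1005 (background 57.7%) and 42 between A1471 and A1129 (background 45.9%). The first comparison gave 12 higher and 26 lower in A1129, the second 24 higher and 25 lower in A1471, and the third 32 higher and 10 lower in A1471. Libraries of a line are treated cultures of the same cells, so that these p-values measure the spread within each line and not between tumours.

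**Figure D4:**
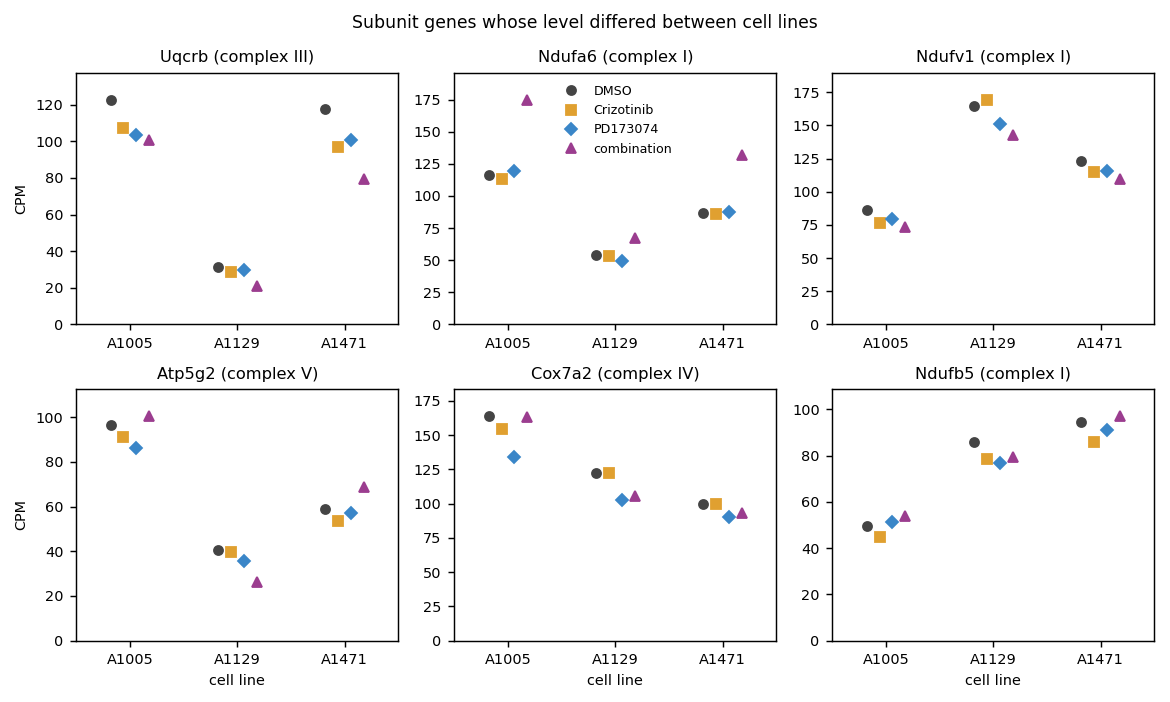
CPM of Uqcrb, Ndufa6, Ndufv1, Atp5g2, Cox7a2 and Ndufb5 by cell line, with a point for each treatment, on axes that start at 0. Uqcrb lies between 20.7 and 31.3 CPM in A1129 and at 79.5 CPM or higher in the other lines, whatever the treatment.

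Uqcrb (chr13:66900617-66905378 on GRCm38, minus strand), the ubiquinone-binding protein of complex III, showed the largest difference between lines. It was at 122, 107, 103 and 101 CPM in A1005 with DMSO, Crizotinib, PD173074 and the combination, at 31.3, 28.7, 29.6 and 20.7 CPM in A1129, and at 117, 96.9, 100.4 and 79.5 CPM in A1471. Every library of A1129 lay below every library of the others. The log2 fold change of A1129 against A1005 was -1.99 ± 0.09 (SE, edgeR adjusted p = 5.55e-08) and that of A1471 against A1129 was 1.84 ± 0.09 (adjusted p = 3.73e-07). A1471 and A1005 did not differ beyond their spread (adjusted p = 0.155). Ndufa6 was lower in A1129 than in A1005 by a log2 fold change of -1.21 ± 0.08 and Atp5g2 by -1.40 ± 0.14. Ndufv1 was at 73.4 to 86.1 CPM in A1005 and at 143 to 169 CPM in A1129, a log2 fold change of 0.99 ± 0.07. In A1471, Ndufb5 was higher than in A1005 by 0.88 ± 0.07 and Atp5a1 by 0.72 ± 0.08, and Cox7a2 was lower (-0.69 ± 0.07). Ndufs4 was higher in A1471 than in A1129 by 0.63 ± 0.08.

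The line differences of most subunits had the sign of those of the genes around them on the chromosome. For each member the median log2 fold change of the other tested genes within 5 Mb was taken, without members. Across the 76 members, own change and neighbourhood had a Spearman rho of 0.71 for A1129 against A1005, 0.77 for A1471 against A1005 and 0.76 for A1471 against A1129, and of 0.11 for the combination against DMSO. The sign was shared by 59, 59 and 61 of 76 members in the line comparisons and by 39 with the combination. These are descriptions over genes, some windows overlap, and the 3 line comparisons share libraries. The same values were not taken for genes other than the members. On chromosome 15, the 5 members Ndufa6, Ndufb9, Cyc1, Cox6c and Atp5g2 had changes of -0.58 to -1.40 in A1129 against A1005, and the 554 tested genes of that chromosome had a median of -0.98. On chromosome 19, Ndufb8, Ndufs8, Ndufv1, Cox8a and Atp5md had changes of 0.38 to 0.99, and the 487 tested genes had a median of 0.54. Of the 21 members that differed by 0.5 or more in A1129 against A1005, 19 had the sign of their neighbourhood. Uqcrb was 1 of the exceptions, with 62 neighbours on chromosome 13 at a median of 0.13 against its own -1.99. Cox7a2 was another in A1471 against A1005, with 39 neighbours at 0.10 against its own -0.69.

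**Figure D5:**
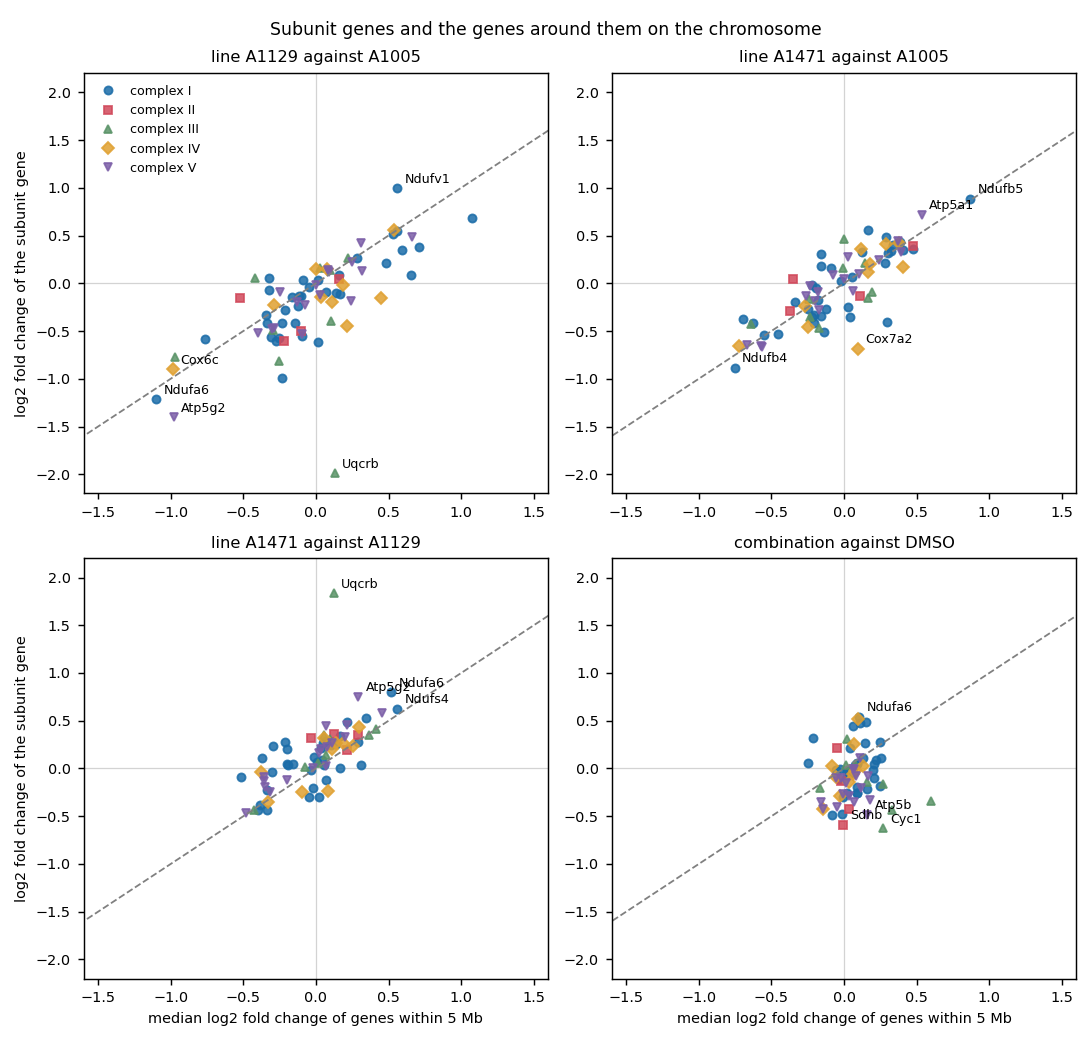
Log2 fold change of the subunit genes against the median log2 fold change of the other tested genes within 5 Mb on its chromosome, for the 3 line comparisons and for the combination against DMSO, with a dashed line at equal values. In the line comparisons most points have the sign of their neighbourhood, Uqcrb and Cox7a2 among the exceptions, and many depart from the dashed line. In the combination the neighbourhoods lie between -0.25 and 0.60 with a Spearman rho of 0.11.

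Overlap with other genes touches some of these values. Exon bases are shared with another gene in 27 of the 76 members, and the shared part is 10% or more of the exon length in 10. Among the members named above, Ndufb9 shares 201 bases with Gm49356 on its own strand (25 counts in all). Ndufb5 shares 616 bases with Mrpl47, Atp5a1 129 bases with Haus1 and Cox5a 269 bases with Gm26631 (44 counts in all), each on the opposite strand. On the opposite strand too, Ndufa13 shares 375 bases with Tssk6 (31 counts in all), Uqcrc2 504 bases with Pdzd9 (41 counts), Ndufs1 489 bases with Ino80dos (279 counts) and Cox6c 250 bases with Vps13b. Vps13b rose with the block (adjusted p = 0.0248, compared with 0.417 without), as Cox6c did. Haus1 fell with the combination (log2 fold change -1.35, edgeR adjusted p = 0.0104) as Atp5a1 did with the block. Haus1 went from 40.9, 42.5 and 55.7 to 14.8, 14.7 and 25.2 CPM, and Atp5a1 from 906, 1030 and 1623 to 746, 798 and 1149 CPM. Some other pairs did not move together. Mrpl47 fell with the block (edgeR adjusted p = 0.00148), whereas Ndufb5 passed neither test (log2 fold change -0.001). Rbm10 shares 117 bases with Ndufb11 on the opposite strand. It fell (log2 fold change -0.505, edgeR adjusted p = 0.0419), whereas Ndufb11 passed neither test (0.111). The strand setting of the counting is not given in the sources used here, and the part of these shared bases was not tested.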

How the data were processed

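RNA-sequencing was carried out on 12 libraries of tumourspheres, 4 treatments in each of 3 cell lines. The deposited values were raw read counts per gene that the authors made from their reads. The submitters' processing notes name bcl2fastq, STAR, HTSeq and mm10, and their versions, the strand setting and the annotation release are not given in the sources used here. Total counts of 13031492 to 17750476 per library set the precision, and intervals and floors cover counting error only.

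Genes were filtered by filterByExpr (minimum count 10, minimum total 15), which left 13836, and tests were quasi-likelihood tests from edgeR 4.0.16 (R 4.3.3) after TMM scaling, in an unpaired design over all 12 libraries and Benjamini-Hochberg adjustment over all genes tested, at a threshold of 0.05. The unpaired design follows the methods of the study. Blocking by cell line, limma-voom (limma 3.58.1), DESeq2 1.42.0, other scalings and filters, only the groups compared, a fold limit and the omission of each line were alternatives. Combinations of the block with other settings were chosen after seeing the data. Deviations from the treatment means of libraries of the same line had a mean correlation of 0.87 over 18 pairs (lowest 0.77), compared with -0.42 over 36 pairs of different lines, and the line names in the labels give the pairing. Line comparisons used 4 libraries per line with treatment as a covariate.

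On simulated counts with line differences and 200 genes changed by 2 on the log2 scale, edgeR recovered 100 genes without and 172 with the block. Exon lengths came from GENCODE M21 (GRCm38). Promoter windows came from RefSeq (GRCm38.p6) and were searched for exact letters. The members and lists (assembly factors, regulators, citric acid cycle, mitochondrially encoded subunits, unmatched chain genes and cell markers) were chosen with earlier results of these data known. Genes given sample by sample were, per complex, those with the smallest p in each direction with the combination, named core subunits, isoform sets, and the 3 with the smallest p between each pair of lines. Other genes named were chosen after their values were seen. The result of 1 member is not reported here. No library pair of 66 held identical values. Summaries and figures used Python 3.11.15.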

Additional observations from a re-analysis of the deposited data

Results flagged for a closer look

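For Ndufa6, Ndufa1 and Ndufb9, subunits of complex I, the effect of Crizotinib differed between tumourspheres with and without PD173074, by an interaction test with the cell line as a block in edgeR. The interaction was 0.56 for Ndufa6 (log2, adjusted p = 0.0158), where Crizotinib gave -0.03 alone and 0.54 on top of PD173074. For Ndufa1 it was 0.44 (adjusted p = 0.0495), with -0.13 and 0.31, and for Ndufb9 it was 0.42 (adjusted p = 0.0383), with -0.18 and 0.24. Each was positive in 3 of 3 lines. In the unpaired test none passed, with adjusted p of 0.960, 0.824 and 0.904 in the same order. Across all tested genes 16.2% had an interaction past the threshold with the block.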

How the results depend on the processing

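Libraries of the same line deviated together, and the pairing by line changed the number of subunits called more than any other setting. With the line as a block the counts against DMSO, PD173074 and Crizotinib were 27, 16 and 22 for the combination, compared with 3, 1 and 1 unpaired, and 4 for the interaction, compared with 0. The block changed no call for either inhibitor alone. The count against DMSO was 1 with no filter on low counts, and 0 with only the groups compared or with a log2 fold change of at least 1.5. Against PD173074 it was 0 with each of these, and against Crizotinib it was 0 with the latter pair and 3 with DESeq2. DESeq2 called 1 interaction, and 8 with the block. Leaving out a line gave 0 to 3 against DMSO (0 without A1129 and without A1471), 0 against PD173074 and 0 to 1 against Crizotinib. With the block these ranges were 10 to 24, 3 to 10 and 5 to 19, and 0 to 2 for the interaction. The causes were not tested, and leaving out a line changes both the number of libraries and the lines present. No called value changed sign. The log2 fold change over the planned settings was -0.76 to -0.42 for Sdhb and -0.57 to -0.39 for Atp5b. Between lines, the counts without the 3 combination libraries were 47, 53 and 47. With 3 lines, differences within their spread were not detectable at this depth and number.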
